A study of Mus musculus with 12 samples.

Results

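Matricellular proteins are secreted into the extracellular matrix without being its main load-bearing part, and they change how cells attach, move and respond to growth factors. Provisional matrix is the loose, fibronectin-rich and versican-rich network laid down during wound repair and vessel remodelling. In the artery wall both are known from injured or aneurysmal vessels, where smooth muscle cells and fibroblasts make them. The 8 genes described here were taken by symbol from the 29462 genes of the deposited table: Fn1 and Vcan of the provisional matrix, and Tnc, Thbs1, Thbs2, Spp1, Sparc and Postn of the matricellular group. Each symbol stood on a single row.

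The RNA came from primary aortic smooth muscle cells of C57BL/6J mice (WT) and of mice with a global knockout of cystathionine gamma-lyase (KO), the hydrogen sulfide-producing enzyme known as CSE and encoded by Cth. Every culture of both genotypes was given angiotensin II, a vasoconstrictor peptide, at 1 uM for 24 h, so the design holds 1 comparison of KO with WT and no untreated cells. There were 6 libraries per genotype. The labels do not say whether they are separate animals or cultures, nor the age or sex of the mice, so p-values measure how far these libraries spread, and that spread may be technical only.

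Some features of the libraries bear on every result. Values are FPKM, fragment counts scaled to the length of the gene model and to the library's mapped fragments. They sum to 255538 to 281432 per library, and the number of reads behind them is unknown. Cth was near 0 in both genotypes (0 to 0.08 FPKM in WT and 0 to 0.02 in KO; exact permutation p = 0.143, two-sided), so its RNA does not check the labels. KO replicates 5 and 6 stood apart: their correlation with KO replicates 1 to 4 across tested genes was 0.947 to 0.96, against at least 0.992 within WT and at least 0.993 among KO replicates 1 to 4. Xist, the X-inactivation RNA, was at a mean of 0.02 FPKM in WT and 2.22 in KO, while the Y-linked gene Ddx3y was at 11.1 and 5.72. These sex-linked RNAs thus differ with genotype, and a part of sex in the results cannot be told apart from it. Within KO, Xist was at 2.31 to 3.53 FPKM in replicates 1 to 4 but 0.31 and 0.63 in replicates 5 and 6. Ddx3y was at 5.52 to 6.78 in replicates 1 to 4 and at 5.69 and 3.49 in replicates 5 and 6. A part of sex in the differences among KO libraries was not tested.

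The labelled cell type was checked against marker genes. Of 8 smooth muscle markers, Acta2 (120 ± 11.1 FPKM in WT and 102 ± 32.3 in KO, SD, n = 6 each) and Smtn were high enough to test and neither passed. Both were lower in KO replicates 1 to 4 alone, and the sum of the 8 was 124 to 152 FPKM in WT and 86.4 to 169 in KO. Myh11, the smooth muscle myosin that best defines the contractile cell, was at no more than 0.03 FPKM in any library. The 7 fibroblast markers summed to 830 to 880 FPKM in WT, 1034 to 1120 in KO replicates 1 to 4, and only 485 and 697 in replicates 5 and 6 of that genotype. The 5 epithelial markers, mostly Cdh1 and Krt19, summed to 140 to 148 FPKM in WT and 40.3 to 59.7 in KO. Cdh1, the epithelial cadherin, fell 75.6-fold, from 65 ± 1.69 to 0.86 ± 0.314 FPKM. It was high enough to test through WT, as KO was at 0.48 to 1.18 FPKM, so its values are given as a description. Krt19 fell 1.57-fold, while Epcam was at no more than 0.15 FPKM. Whether the cultures of the 2 genotypes hold the same cell types was not tested. Mesothelial markers (4 genes) summed to 6.08 to 6.81 and 4.27 to 9.26 FPKM, endothelial markers (5 genes) to 0.1 to 0.28 and 0.59 to 0.96, and cycling markers (3 genes) to 73.3 to 103 and 55.5 to 206. The mesothelial markers went both ways. Mean Msln was 5.96 FPKM in WT and 3.61 in KO, whereas Upk3b was at 0.448 and 2.1 and Wt1 at 0.117 and 1.51. Most of the endothelial sum in KO was Kdr, at 0.4 to 0.81 FPKM against no more than 0.01 in WT. The part of other cell types in the results below was not tested. In bulk RNA, fewer cells of a type and less RNA per cell cannot be told apart.

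Of the 8 genes, 7 reached the level set for testing, at least 1 FPKM in at least 6 libraries, and Postn did not. In limma's fit of log2(FPKM + 1) over the 11831 genes tested, Tnc, Thbs1, Thbs2 and Sparc rose in KO and Fn1 fell, at an adjusted p under 0.05. That is 5 of 7, where 63.5% of all tested genes passed, 32.6% higher and 30.9% lower in KO, so the share of these genes that passed is close to the background. The KO and WT values did not overlap in 4 of the 7 (Fn1, Tnc, Thbs1 and Thbs2), against 46.4% of all tested genes. The median difference of the 7 was 0.54 on the log2(FPKM + 1) scale, and that of all tested genes 0.0087. Thbs2 was tested only because it is high in KO, so its call is fixed by the filter and its values are given as a description.

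**Figure D1:**
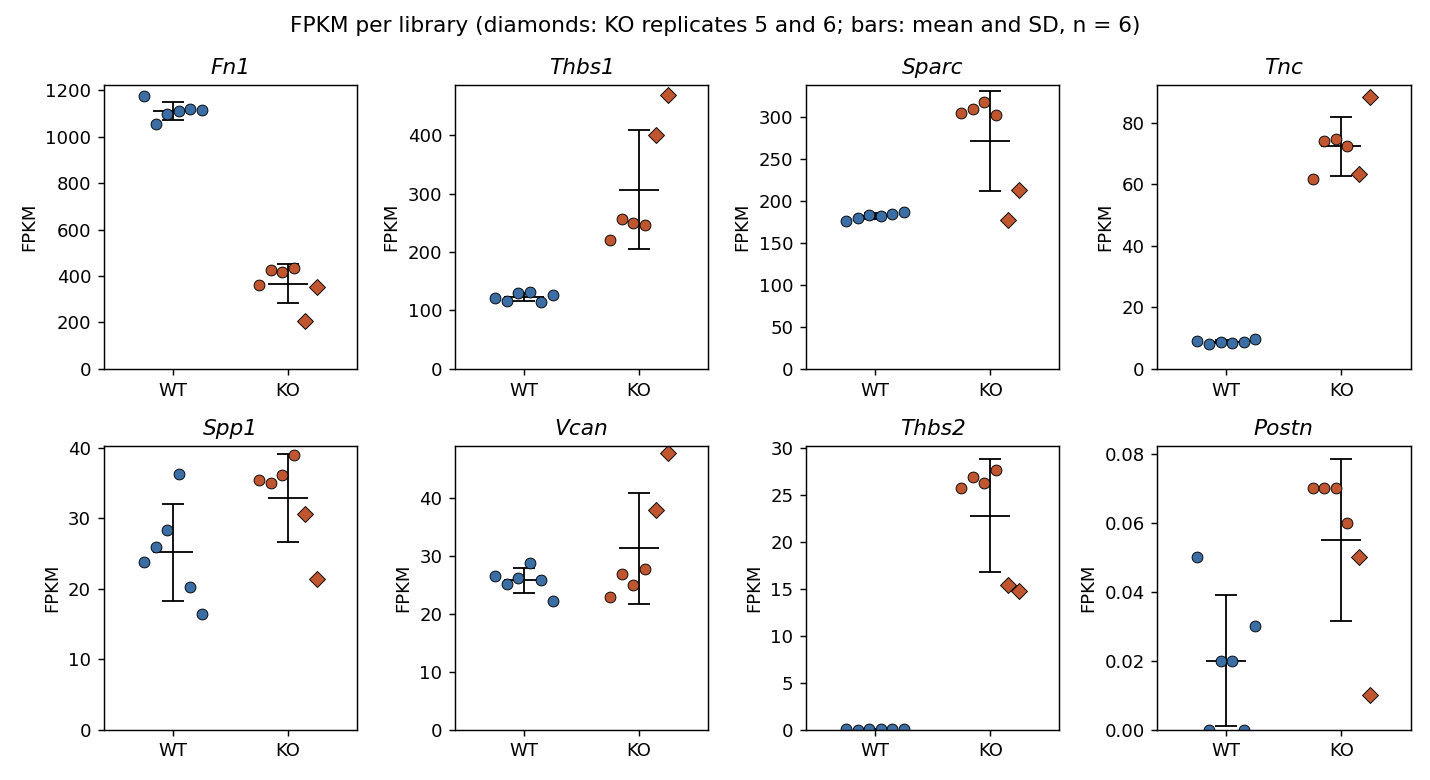
FPKM (vertical axes, each from 0) of the 8 genes in the 6 WT and 6 KO libraries, with points in order of replicate number, diamonds for KO replicates 5 and 6, and bars for the mean and SD. Fn1 is lower and Tnc, Thbs1 and Thbs2 are higher in all 6 KO libraries, whereas Sparc, Spp1, Vcan and Postn overlap between genotypes.

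Fibronectin, the main glycoprotein of the provisional matrix, is bound by integrins through its RGD site and gives other matrix proteins a scaffold. In GRCm38, by the GENCODE M21 annotation, Fn1 spans 71585520 to 71653200 of chromosome 1 (minus strand). Its lowest, median and highest values were 1054, 1115 and 1175 FPKM in WT and 208, 390 and 436 FPKM in KO. The groups were far apart, and the highest KO library held less than the lowest WT library. Mean FPKM fell 3.03-fold, from 1113 ± 38.9 to 367 ± 84.9 (SD, n = 6 each; log2 difference -1.64 ± 0.15 SE, adjusted p = 5.3e-07). Among all genes tested, 1.29% fell further than Fn1. Fn1 ranked 25 by mean FPKM among all genes of the table in WT and 78 in KO, so it was still among the abundant transcripts.

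Versican is a large chondroitin sulfate proteoglycan that binds hyaluronan and loosens the matrix around moving cells. Vcan is on chromosome 13 from 89655312 to 89742509 (minus strand). It ran from 22.2 through a median of 26 to 28.8 FPKM in WT, and from 22.9 through 27.3 to 47.8 in KO. KO replicates 1 to 4, at 22.9 to 27.7, lay within the WT range, and KO replicates 5 and 6 were higher, at 37.9 and 47.8. The difference did not pass (0.23 on the log2 scale, 95% interval -0.099 to 0.56, adjusted p = 0.21). Without KO replicates 5 and 6 it was -0.0096 (95% interval -0.16 to 0.14, adjusted p = 0.90). The cycling markers, 55.5 to 61 FPKM in sum in KO replicates 1 to 4, were also higher in KO replicates 5 and 6, at 124 and 206, and their part in the Vcan values was not tested.

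Tenascin C is a six-armed glycoprotein that weakens cell attachment to fibronectin and is induced by stretch and injury. Tnc spans 63959785 to 64047015 of chromosome 4 (minus strand). The WT libraries held 8.2 to 9.64 FPKM with a median of 8.86, and the KO libraries 61.7 to 88.3 with a median of 73.2. Every KO library was at least 61.7 FPKM, and KO replicate 6 was the highest. The rise of the mean was 8.18-fold, from 8.85 ± 0.539 to 72.4 ± 9.56 FPKM (n = 6 each; log2 difference 2.89 ± 0.081 SE, adjusted p = 3.8e-12). Only 0.583% of the tested genes rose further than Tnc on this scale. The ratio of Fn1 to Tnc FPKM, a per-length comparison within a library, was 116 to 134 in WT and 3.28 to 6.02 in KO.

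The thrombospondins are calcium-binding glycoproteins. Thrombospondin 1 binds CD47 and CD36 and can activate latent TGF-beta, while thrombospondin 2 shares the antiangiogenic activity, lacks the TGF-beta activating sequence and is known for its effect on collagen fibrils. Thbs1 (chromosome 2, 118111876 to 118127133, plus strand) was already abundant in WT, at 115 to 131 FPKM with a median of 124, and stood at 220.5 to 468 with a median of 253 in KO. KO replicates 5 and 6, at 399.65 and 468 FPKM, were the highest of all libraries, and KO replicates 1 to 4 held 220.5 to 257. The mean rose 2.49-fold, from 123 ± 6.73 to 307 ± 102 FPKM (n = 6 each; log2 difference 1.25 ± 0.16 SE, adjusted p = 1.9e-05), and the difference was 0.97 without KO replicates 5 and 6 (adjusted p = 2.2e-09).

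Thbs2 went from near absence to a moderate level. It lies on chromosome 17 from 14665500 to 14694235 (minus strand). Its lowest, median and highest values were 0.01, 0.025 and 0.08 FPKM in WT and 14.7, 26 and 27.7 FPKM in KO. Here KO replicates 5 and 6, at 15.4 and 14.7, were the lowest of their genotype, the opposite of Thbs1. The means were 0.0383 ± 0.0293 and 22.8 ± 6 FPKM (n = 6 each), a ratio of 594 that rests on WT values deposited to 2 decimals. The log2 difference was 4.47 ± 0.15 SE with a pseudocount of 1, and 7.35 and 9.05 with pseudocounts of 0.1 and 0.01. Of the 7 fibroblast markers, Dpt and Pdgfra were also low in WT and, within KO, lower in replicates 5 and 6. Dpt was at 0 to 0.17 FPKM in WT, and KO replicates 5 and 6, with 9.46 and 7.82, held less than the 18.6 to 19.2 of the other KO libraries. Pdgfra was at 0.86 to 1.49 FPKM in WT, and in KO at 11.3 to 13.4 in replicates 1 to 4 but 5.09 and 6.03 in replicates 5 and 6. The other markers differed: Col1a1, Col1a2 and Dcn were already abundant in WT, and Lum and Pi16 were near 0 in both genotypes. Col1a2 was lower in KO, at 79.3 to 222 FPKM against 290 to 309 in WT. Dcn fell below its WT range only in KO replicates 5 and 6. The part of fibroblasts in the Thbs2 values was not tested.

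SPARC, or osteonectin, binds collagen and calcium and takes part in collagen assembly. Sparc (chromosome 11, 55394500 to 55423183, minus strand) held 177 to 187 FPKM in WT with a median of 183, and 178 to 318 in KO with a median of 304. KO replicates 1 to 4 were at 303 to 318 FPKM, above all WT libraries. KO replicate 5, at 178, lay inside the WT range, and KO replicate 6 was at 214. The mean rose 1.49-fold, from 182 ± 3.66 to 271 ± 59.6 FPKM (n = 6 each; log2 difference 0.54 ± 0.13 SE, adjusted p = 0.0029). The difference was 0.76 without KO replicates 5 and 6 (adjusted p = 3.1e-11), and an exact rank-sum test over all 12 libraries gave an adjusted p of 0.066. The summed fibroblast markers, mostly Col1a1 and Col1a2, were also highest in KO replicates 1 to 4. Unlike Sparc, their sum in KO replicates 5 and 6 was below that of every WT library. The markers differed among themselves. Of 5 tested, Pdgfra rose, Col1a2 fell, and Col1a1 and Dcn did not pass. Pdgfra reached the level for testing through KO, as WT was at 0.86 to 1.49 FPKM. Dpt also rose, but it was tested only because it is high in KO. The part of fibroblasts in the Sparc result was not tested.

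Osteopontin is a secreted phosphoprotein that integrins and CD44 bind, made by macrophages and by smooth muscle cells that have left the contractile state. Spp1 (chromosome 5, 104435118 to 104441050, plus strand) spread widely within WT, from 16.4 through a median of 24.9 to 36.3 FPKM, and ran from 21.4 through 35.2 to 39 in KO. The groups overlapped. The means were 25.2 ± 6.89 and 32.9 ± 6.27 FPKM (n = 6 each), and the log2 difference of 0.39 did not pass (95% interval 0.0065 to 0.77, adjusted p = 0.071). It passed without KO replicates 5 and 6, at 0.55 (adjusted p = 0.0080), without KO replicate 6 alone, at 0.51 (adjusted p = 0.014), and without WT replicate 4, at 0.50 (adjusted p = 0.019). The 6 macrophage markers summed to 2.18 to 3.18 FPKM in WT and 8.53 to 14.8 in KO, mostly Cd68 and Csf1r. The defining markers Ptprc and Adgre1 were at no more than 0.04 FPKM in any library. The part of macrophages in the Spp1 values was not tested.

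Periostin supports collagen cross-linking and is a common marker of activated fibroblasts. Postn (chromosome 3, 54361109 to 54391037, plus strand) was barely detected, with WT values of 0 to 0.05 FPKM and a median of 0.02, and KO values of 0.01 to 0.07 and a median of 0.065. On the log2(FPKM + 1) scale it was 0.049 higher in KO (exact permutation p = 0.0325, two-sided). It did not pass without any 1 of WT replicates 2 and 5 or KO replicates 1 to 3 (exact permutation p = 0.0519 to 0.0563). All values were far below 1 FPKM, and no size of change is read from them.

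**Figure D2:**
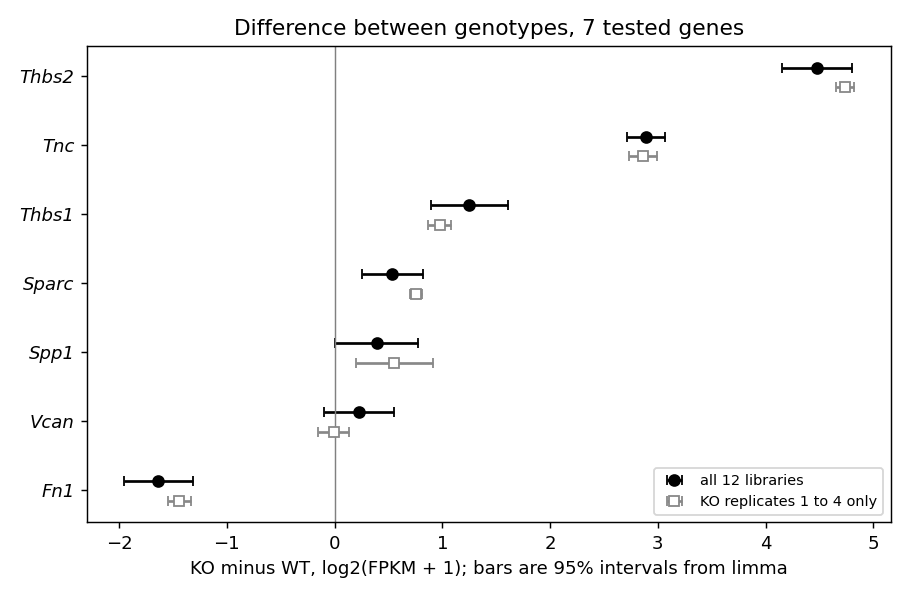
Difference KO minus WT on the log2(FPKM + 1) scale (horizontal axis) for the 7 tested genes, with 95% intervals from limma, for all 12 libraries (filled circles) and with KO replicates 1 to 4 only (open squares). Thbs2, Tnc, Thbs1 and Sparc lie above 0 and Fn1 below 0 in both, and Vcan moves from 0.23 to -0.0096.

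The order of the levels, per length of gene model, was different in the 2 genotypes. In WT Fn1 was highest, followed by Sparc and Thbs1, each clear of the next, then Spp1 and Vcan, whose ranges overlapped, then Tnc, with Thbs2 and Postn near 0. In KO Fn1, Thbs1 and Sparc overlapped in range at the top, Tnc followed alone, and Vcan, Spp1 and Thbs2 overlapped below it. The overlap at the top came from KO replicates 5 and 6. In KO replicates 1 to 4 Fn1 (363 to 436 FPKM), Sparc (303 to 318) and Thbs1 (220.5 to 257) kept the order of WT, each clear of the next. Fn1 exceeded Thbs1 by 8.46 to 9.72 times in the WT libraries and by 1.65 to 1.77 times in KO replicates 1 to 4. In KO replicates 5 and 6 Thbs1 exceeded Fn1, with ratios of Fn1 to Thbs1 of 0.521 and 0.755. In both of these libraries Fn1 stayed above Sparc.

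The 8 genes together made up 0.533% ± 0.0155 of the summed FPKM in WT and 0.405% ± 0.0465 in KO (SD, n = 6 each). Fn1 alone was 74.2% to 76.7% of their sum in WT and 22.3% to 37.9% in KO. Without Fn1 the other 7 summed to 355 to 387 FPKM in WT and 671 to 854 in KO. The sum over the 8 genes was thus lower in every KO library, and the sum over the 7 without Fn1 higher, with no overlap in either.

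**Figure D3:**
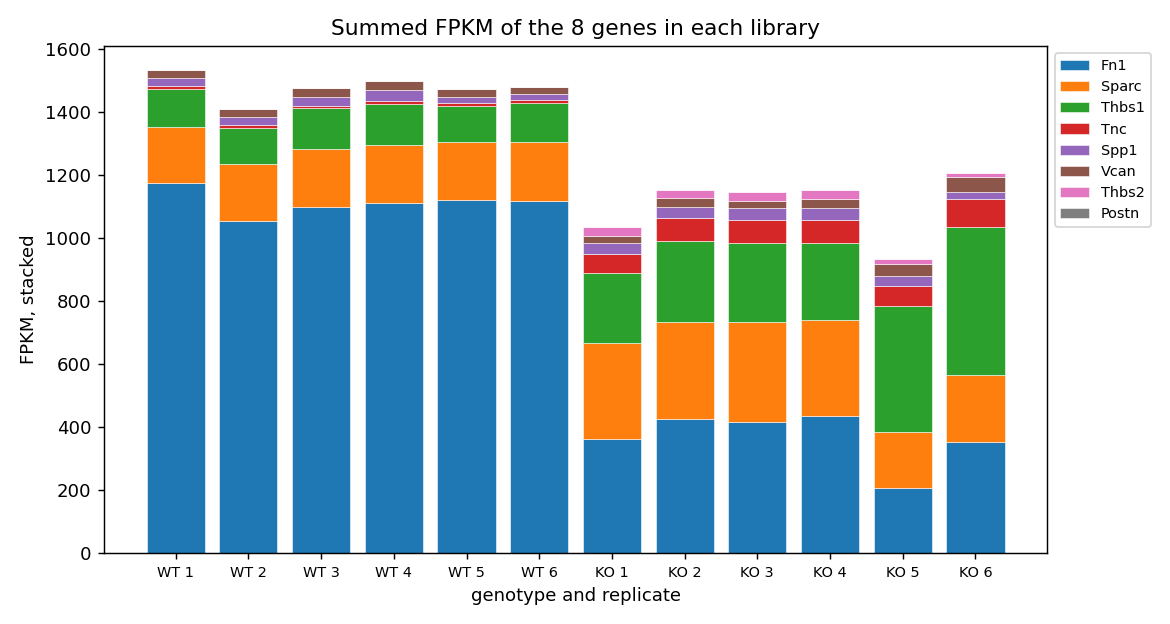
FPKM of the 8 genes stacked for each library, from 0. Fn1 makes up 74.2% to 76.7% of the bar in the WT libraries and 22.3% to 37.9% in the KO libraries, where Thbs1, Sparc and Tnc take a larger part.

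With KO replicates 5 and 6 left out, 6 of the 7 tested genes passed, Spp1 joining Tnc, Thbs1, Thbs2 and Sparc as higher, where 77.1% of all tested genes passed. The authors' deposited table, which covers all rows, marks 15.0% of genes as significant and Tnc, Thbs1, Thbs2 and Fn1 among the 8. For Fn1 the authors' deposited table gives a log2 ratio of WT over KO of 1.6, for Tnc -3.03, for Thbs1 -1.32 and for Thbs2 -9.24. Sparc has a log2 ratio of -0.57 and a q-value of 0 in the authors' deposited table and is not marked there. That table gives Spp1, Postn and Vcan q-values of 0.1, 0.09 and 0.25.

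The DNA before the start of the genes is shown for the steepest rises and for the gene that stayed near 0. RefSeq promoter sequences of GRCm38.p6 matched 6 of the 8 genes: Tnc, Thbs2, Spp1, Postn, Sparc and Vcan. Below are the 250 bases before the start nearest to the gene's 5′ end in GENCODE, written 5′ to 3′ along the gene's strand, with matches to TATAAA on either strand in capitals. The windows are chr4:64047016-64047265 (minus strand) for Tnc, chr17:14694263-14694512 (minus strand) for Thbs2 and chr3:54360857-54361106 (plus strand) for Postn.
Tnc: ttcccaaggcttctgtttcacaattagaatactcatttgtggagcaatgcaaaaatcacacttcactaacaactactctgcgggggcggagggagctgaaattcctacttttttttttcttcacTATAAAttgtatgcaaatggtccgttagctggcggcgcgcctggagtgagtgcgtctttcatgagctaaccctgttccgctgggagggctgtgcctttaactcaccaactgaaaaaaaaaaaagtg
Thbs2: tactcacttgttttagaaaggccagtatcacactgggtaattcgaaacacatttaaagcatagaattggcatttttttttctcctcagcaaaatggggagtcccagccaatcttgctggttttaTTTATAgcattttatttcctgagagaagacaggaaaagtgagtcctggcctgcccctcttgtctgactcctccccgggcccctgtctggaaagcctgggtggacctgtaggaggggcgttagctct
Postn: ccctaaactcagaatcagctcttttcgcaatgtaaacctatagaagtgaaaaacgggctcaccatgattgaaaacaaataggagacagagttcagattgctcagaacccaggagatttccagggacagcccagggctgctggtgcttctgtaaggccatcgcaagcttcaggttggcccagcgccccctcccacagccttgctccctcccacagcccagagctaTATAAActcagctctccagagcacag

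In Postn the match begins 26 bases before the start, where a TATA box usually lies. In Tnc and Thbs2 it begins 126 bases before the start, and in Thbs2 it reads TTTATA, the reverse complement. Spp1 held a match that begins 211 bases before its start, and Vcan held none. The Sparc window also held none, but it lies inside the gene, 3103 bases from the 5′ end in GENCODE, so it is not the DNA before that end. Among 32851 promoter windows of the same length, 12.4% hold TATAAA. None of the 6 windows held TGANTCA, the AP-1 motif, GGAATG, the TEAD motif, or a CArG box, which 6.75%, 12.6% and 1.47% of all windows hold. These are letters in a short window and say nothing of factor binding.

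Other matricellular genes were read from a list of 22. Of the 10 tested, 6 rose, 3 fell and Tnxb, tenascin X, did not pass, where 63.5% of all tested genes passed (median difference 1.06 on the log2 scale, 0.0087 over all genes tested). The rises were those of Fbln5, fibulin 5 of the elastic fibre, from 2.64 ± 0.16 to 12 ± 2.28 FPKM (adjusted p = 3.2e-09), and of all 5 tested CCN genes, which encode cysteine-rich growth factor-binding proteins. Ccn5 rose 2.64-fold to 81.4 ± 13.1 FPKM (adjusted p = 4.6e-08). Ccn1 and Ccn2, early targets of mechanical and angiotensin II signalling, rose 2.98- and 2.87-fold, and like Thbs1 they were highest in KO replicates 5 and 6 (69.8 and 81.4 FPKM for Ccn1, 50.6 and 49.7 for Ccn2). Ccn3 went from 0.0833 ± 0.0513 to 21.4 ± 11.4 FPKM and was tested only because it is high in KO. The CCN genes beyond Ccn5 were chosen for naming after their values were seen.

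The 3 that fell are relatives of members that rose. Smoc1, of the SPARC family, fell 2.97-fold to 16.2 ± 3.08 FPKM (adjusted p = 2.4e-08). Thbs3, a thrombospondin of the five-chain subgroup, fell 1.92-fold to 9.69 ± 1.14 (adjusted p = 9e-08), whereas Thbs1 and Thbs2 rose. Fstl1, a follistatin-like member of the SPARC family, fell 2.45-fold to 37.3 ± 9.43 FPKM (adjusted p = 3.8e-06). Of the list, 8 genes were below the level for testing, and Thbs4, Spock1, Spock3 and Ibsp were not analysed here.

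Versican's relatives and the plasma proteins of provisional matrix were almost silent. Of 11 listed, Hapln4, a link protein that ties proteoglycans to hyaluronan, reached the level for testing, and it did so through WT alone, at 3.16 ± 0.236 FPKM against 0.203 ± 0.0689 in KO. The other 8 analysed, among them the vitronectin gene Vtn and the fibrinogen genes Fga and Fgb, were below it in both genotypes. Hapln1 and Fgg were not analysed here.

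The receptors of these proteins did not move together. Of 15 listed, 9 were tested, 3 rose, 3 fell and 3 did not pass, a share close to the 63.5% of all tested genes that passed (median difference -0.11, 0.0087 over all genes tested). Itga5, the alpha chain of the classical fibronectin receptor, rose 2.29-fold from 15.9 ± 0.71 to 36.4 ± 3.49 FPKM (adjusted p = 6.1e-09), while its partner Itgb1 fell 1.2-fold to 134 ± 10.9 (adjusted p = 0.0011). Itgb3, a beta chain that binds fibronectin, osteopontin and thrombospondin, fell 1.91-fold to 4.99 ± 0.989 (adjusted p = 7.4e-06). Cd47, the thrombospondin 1 receptor, fell 1.99-fold to 17.1 ± 3.2 FPKM (adjusted p = 4e-06), and Cd36 was at no more than 0.03 FPKM.

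Lrp1, an endocytic receptor that clears thrombospondins, rose 1.41-fold to 130 ± 28.8 FPKM (adjusted p = 0.0070; 0.066 in an exact rank-sum test). The third receptor that rose was Itgav, 1.22-fold (adjusted p = 0.0070), and it did not pass with quantile normalization (adjusted p = 0.083) or the exact rank-sum test (adjusted p = 0.094). Without KO replicates 5 and 6, 4 receptors were higher and 5 lower in KO, where 77.1% of all tested genes passed. Cd44, the receptor of hyaluronan and osteopontin, was then among the lower, and with all libraries its difference of -0.31 did not pass (adjusted p = 0.14).

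**Figure D4:**
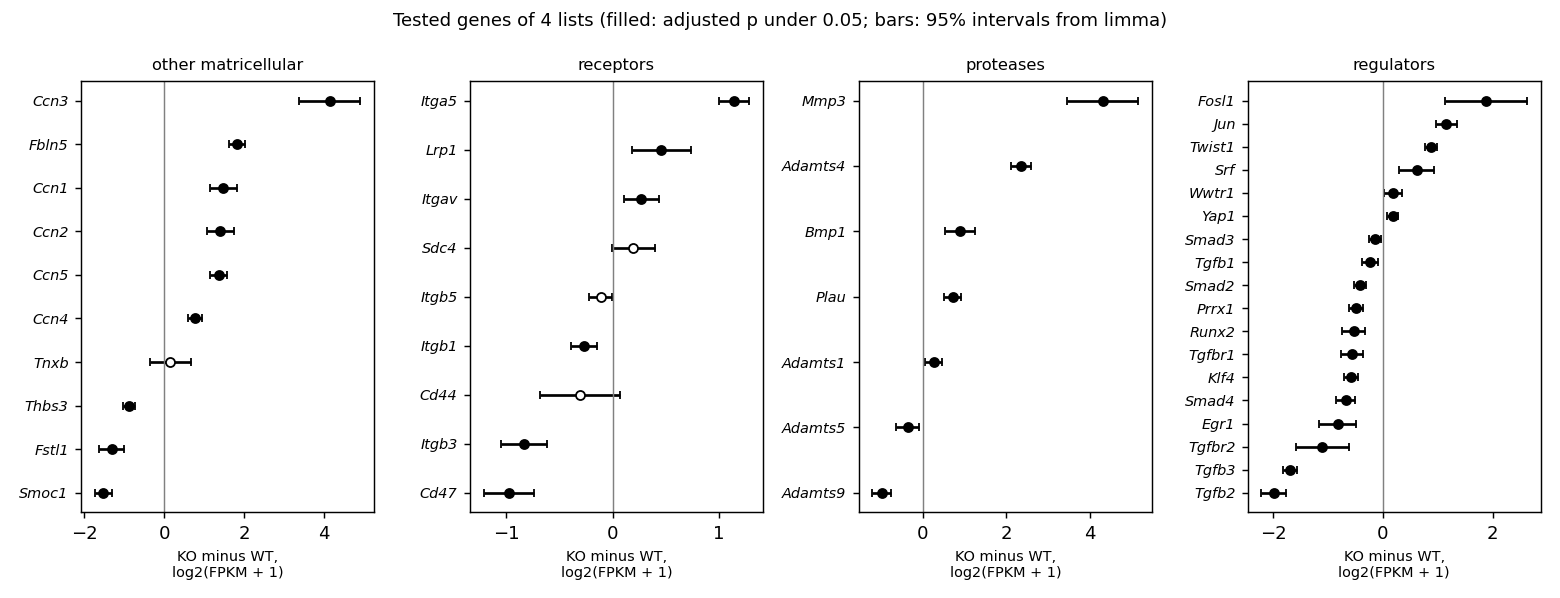
Difference KO minus WT on the log2(FPKM + 1) scale (horizontal axes, which differ between panels) for the tested genes of 4 lists, with 95% intervals from limma and filled points for an adjusted p under 0.05. The tested CCN genes lie above 0 and Thbs3, Fstl1 and Smoc1 below it, and receptors lie on both sides.

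Of 12 listed proteases that cut these matrix proteins, 7 were tested, of which 5 rose and 2 fell, where 63.5% of all tested genes passed (median difference 0.71, 0.0087 over all genes tested). A further 3 were below the level for testing, and Adamts20 and Mmp7 were not analysed here. Mmp3, stromelysin 1, which cleaves fibronectin, osteopontin and SPARC, rose 24.7-fold from 26.3 ± 2.58 to 649 ± 346.3 FPKM (adjusted p = 6.1e-07), but its KO level was uneven, 833 to 918 FPKM in replicates 1 to 4 against 229 and 179 in replicates 5 and 6. Adamts4, a versicanase, rose 9.86-fold from 0.883 ± 0.0967 to 8.71 ± 1.73 FPKM. It reached the level for testing through KO, as WT was at 0.72 to 1 FPKM, so its values are given as a description. The other versicanases went both ways. Adamts9 fell 2.14-fold to 5.16 ± 1.01 FPKM (adjusted p = 2.4e-06), and Adamts5 fell 1.4-fold to 1.87 ± 0.612 (adjusted p = 0.022; 0.050 with no filter on low values). KO replicates 5 and 6 held the lowest Adamts5 values, 1.02 and 1.16 FPKM, and without them its log2 difference was -0.15 in place of -0.37. Adamts1 rose 1.26-fold (adjusted p = 0.025), and it no longer passed once KO replicate 1, 3 or 4 was left out (adjusted p = 0.0558, 0.0539 and 0.0575) or in the exact rank-sum test (adjusted p = 0.168).

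Of 21 genes known to act on the members' transcription, 18 were tested, of which 12 fell and 6 rose, where 30.9% of all tested genes fell and 32.6% rose (median difference -0.45, 0.0087 over all genes tested). The TGF-beta ligands, known inducers of Fn1, Tnc and Postn, were lower: Tgfb2 fell 4.55-fold from 20.1 ± 0.729 to 4.42 ± 0.939 FPKM (adjusted p = 2.8e-09), Tgfb3 fell 3.34-fold to 17.1 ± 1.49 (adjusted p = 2.6e-11) and Tgfb1 1.19-fold (adjusted p = 0.0064). Their receptor gene Tgfbr2 fell 2.08-fold, with 6.71 and 7.4 FPKM in KO replicates 5 and 6 against 16.6 to 17.6 in KO replicates 1 to 4, and without those 2 libraries its log2 difference was -0.71 in place of -1.10. Among the rises, Twist1, a mesenchymal transcription factor, went from 9.49 ± 0.504 to 18.3 ± 0.709 FPKM (adjusted p = 4.1e-09), and the AP-1 genes Jun and Fosl1 rose 2.46- and 5.33-fold. Fosl1 reached 32.6 and 55.9 FPKM in KO replicates 5 and 6, the libraries with most Thbs1, against 10.9 to 12.8 in the other KO libraries. A part of Fosl1 in the Thbs1 values was not tested. Srf also rose, by 0.61 on the log2 scale and by 0.37 without KO replicates 5 and 6. Yap1 rose as well, but not with quantile normalization (adjusted p = 0.077). Wwtr1 rose 1.16-fold (adjusted p = 0.042), and its call was lost in 13 of 24 alternative analyses. Of the genes in this paragraph, Tgfb1, Tgfbr2, Fosl1, Srf, Yap1 and Wwtr1 were chosen for naming after their values were seen, as were Itgb1, Itgav, Cd44, Cd36, Adamts1 and Fstl1 above. Of the genes for angiotensin receptors, Agtr1b was at no more than 0.06 FPKM and Agtr1a was not analysed here.

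Reads from neighbouring genes on the same stretch are a limit on any gene-level value. GENCODE M21 places another gene over Fn1, Thbs1, Tnc, Spp1 and Vcan, in all but Spp1 on the opposite strand. None of these neighbours was above 0.56 FPKM in any library, which was the highest value of Gm29233 over Thbs1.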

How the data were processed

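The deposited table gives FPKM to 2 decimals, made by the authors; mm9 is the build in the submitters' processing notes, which list as tools, with no roles, StringTie 1.3.4d, HISAT2 2.0.4, cutadapt 1.9, edgeR and DESeq2. Per the labels' protocols, poly(A) RNA was selected and the second strand marked with dUTP; use of strand in quantification was not given in the sources used here. The deposited ratio (mean WT over mean KO), its log2, p-value and q-value are the authors' own, by a test not given in the sources used here.

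For each symbol the row of highest mean was used. Genes reaching 1 FPKM in 6 or more libraries were tested with limma 3.58.1 in R 4.3.3 on log2(FPKM + 1), with a variance trend and no covariate, two-sided, with Benjamini-Hochberg adjustment over all 11831 genes at 0.05. A value written as N-fold is a ratio of group means of FPKM. Postn and Cth were compared by exact permutation. On simulated data for this comparison (11831 genes), 90.5% of 200 changed genes were called. Gene positions come from GRCm38 and were matched by gene ID. Named list genes are the 2 of smallest p per direction, plus others chosen after their values were seen. The 8 genes and all lists were chosen with earlier results of these data known. KO replicates 1 to 4 only was an alternative added after seeing the data.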

Additional observations from a re-analysis of the deposited data

Results flagged for a closer look

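In groups of 6 libraries, single values far from the other 5 were marked when their gap to the nearest, as a part of the group's range, exceeded Dixon's critical value. This happened in 8 of 86 groups examined, and chance alone marks about 1 group in 20. Fn1 in KO replicate 5 was at 208.14 FPKM, with the other KO libraries at 354 to 436. Postn in KO replicate 6 was at 0.01 FPKM, with the others at 0.05 to 0.07, and Cth in WT replicate 1 was at 0.08, with the others at 0 to 0.02. KO replicate 6 was low in Itgb1 (112.98 FPKM, others 134 to 143) and in Wwtr1 (16.65, others 21.1 to 23.3), and KO replicate 5 was high in Plau, a plasminogen activator (3.31, others 2.09 to 2.53). In WT, Itgb3 was at 8.82 FPKM in replicate 2 (others 9.58 to 9.8) and Tgfbr1 at 13.54 in replicate 4 (others 11.3 to 12.1).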

How the results depend on the processing

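The calls of Tnc, Thbs1 and Fn1 held in all 24 alternatives, with adjusted p of at most 0.0047, and 4 to 6 of the 8 genes were called in each. Spp1 passed with library weights (0.50 on the log2 scale, adjusted p = 0.0030), and when KO replicates 5 and 6 were dropped (0.55); with 1 library left out it ranged from 0.28 to 0.51. Sparc kept its difference of 0.54 but did not pass the exact rank-sum test. Vcan turned to -0.0096 with KO replicates 1 to 4 only. Postn ranged from 0.043 to 0.061 with 1 library left out, and with no filter on low values limma called it (adjusted p = 0.041). Over all genes 7515 were called, and 4775 with a minimum of 5 FPKM, where 7244 were tested. The replicate numbers did not pair the libraries (correlation of same-numbered deviations -0.27 to -0.058), and no library correlated best with its own number. With the replicate number as a block 6959 genes were called, and Spp1 passed at 0.39 (adjusted p = 0.0026). Of 34 other named genes none changed direction in any alternative. Without counts, the precision of low values such as those of Postn is unknown.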

Other observations

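Tgfbi, a matricellular protein induced by TGF-beta, stood below the level for testing but was not silent in KO. It held 0.23 to 0.59 FPKM in WT, and in KO 4.3 to 5.44 in replicates 1 to 4 but 0.88 and 0.72 in replicates 5 and 6. Smoc2, a SPARC relative, was at 0.01 to 0.04 FPKM in WT and 0.09 to 0.27 in KO. Mmp9, which was also below that level, was at 0 to 0.03 FPKM in WT and 0.17 to 0.82 in KO.

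Within genotypes, the gene whose deviations from the genotype mean most resembled those of each tested gene was Jmjd1c for Tnc (Pearson r = 0.97), Olfml2b for Thbs1 (0.98), Fstl1 for Thbs2 (0.996), H2bc11 for Spp1 (0.92), Lrrc32 for Sparc (0.995), Pakap for Fn1 (0.99) and Smc4 for Vcan (0.99). These values describe 12 libraries, of which KO replicates 5 and 6 lie furthest from the rest. Among the 8 genes, Thbs1 went with Vcan (r = 0.94) and against Thbs2 (r = -0.95), and Sparc went with Thbs2 (r = 0.949). Thbs2 hardly varied in WT, at 0.01 to 0.08 FPKM, so its correlations rest on the KO libraries. Fstl1 thus resembled Thbs2 within KO, where both were lower in replicates 5 and 6, although between genotypes Fstl1 fell and Thbs2 rose.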
